A study of Homo sapiens with 4 samples.

Results

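RHOBTB3 circles are here the circular RNAs that the deposited data assign to RHOBTB3, a gene of chromosome 5. They were taken as the deposited rows whose gene field holds RHOBTB3 and whose type is not antisense, which gave 43 of 211599 rows. Of these, 22 rows named RHOBTB3 alone and 21 named a further gene. The gene was put forward with the results of these libraries known, because the summed counts of its circles that name no other gene were higher in the knockdown libraries. Differences between knockdown and control are therefore given here as a description, with no test of RHOBTB3 itself.

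Counts came from 4 nanopore libraries of the established breast cancer cell line MDA-MB-468, of human origin. All were made from a radiation-resistant derivative, selected with 50 Gy in total given in fractions, that carried a short hairpin RNA. The groups were 2 libraries with a control hairpin (shCtrl) and 2 with a hairpin against HNRNPL (shHNRNPL), called control and knockdown below, and the series' design text calls the 2 of each group biological replicates and the knockdown stable. HNRNPL is an RNA-binding protein that regulates splicing, and the study asked which circular RNAs depend on it. No row named HNRNPL, so the knockdown rests on the labels, and a single hairpin line stands for it.

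RHOBTB3 encodes a protein with BTB domains that bind the ubiquitin ligase scaffold CUL3. The protein is known for work in RAB9-dependent transport from endosomes to the Golgi and for promoting the breakdown of HIF1A. A circular RNA forms when a splice donor joins an acceptor upstream of it, in place of the next one downstream. The circle then runs from the exon with the acceptor to the exon with the donor, and is named here by those first and last exons.

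The deposited rows give the chain of genomic blocks in each circle. The longest chain in RHOBTB3 had 12 blocks, which serve as exon numbers here. They are the order of the blocks in that chain, not an annotation. Blocks 3 to 11 were between 97 and 366 nt long. The longest gap between neighbouring blocks, 12085 nt, followed block 8 and held HSPD1P11, a processed pseudogene at 95769697 to 95771183 in RefSeq (GRCh38.p14). All 19 rows that ran across this pseudogene also named it. In the well-measured circles, naming a further gene thus means that the circle crossed the gap between blocks 8 and 9. Only 1 row named another gene, GLRX, the neighbour downstream.

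Of the 43 rows, 41 had a count and 9 had at least 10 counts over the libraries. These 9 held 87.6% of the 865 RHOBTB3 counts. Each of the 9 was an exon circle with the canonical splice motif AG-GT and no asterisk, a mark the table sets beside some motifs and whose meaning is not given in the sources used here. Their lengths ran from 479 to 1492 nt. Altogether 21 rows had a motif without an asterisk, and 20 of those began and ended at blocks of the longest chain, none before block 3 and none after block 11. The remaining row without an asterisk was the complete gap between blocks 4 and 5, 3751 nt, with 2 counts in control replicate 1.

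The libraries held 472428 and 556578 counts (control replicates 1 and 2) and 282737 and 390547 counts (knockdown replicates 1 and 2). Control replicate 1 stood apart in content. Over all rows with a gene that were not antisense, 42.3% of its counts lay in rows with an asterisk or without a motif, against 23.1% to 23.4% in the other libraries. For RHOBTB3 that share was 19.4% in control replicate 1 (95% exact binomial interval 14.2% to 25.5%), beside 2.10%, 1.27% and 2.28% in control replicate 2 and knockdown replicates 1 and 2. Values are given below with and without control replicate 1, and the part of its content in the results was not tested.

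**Figure D1:**
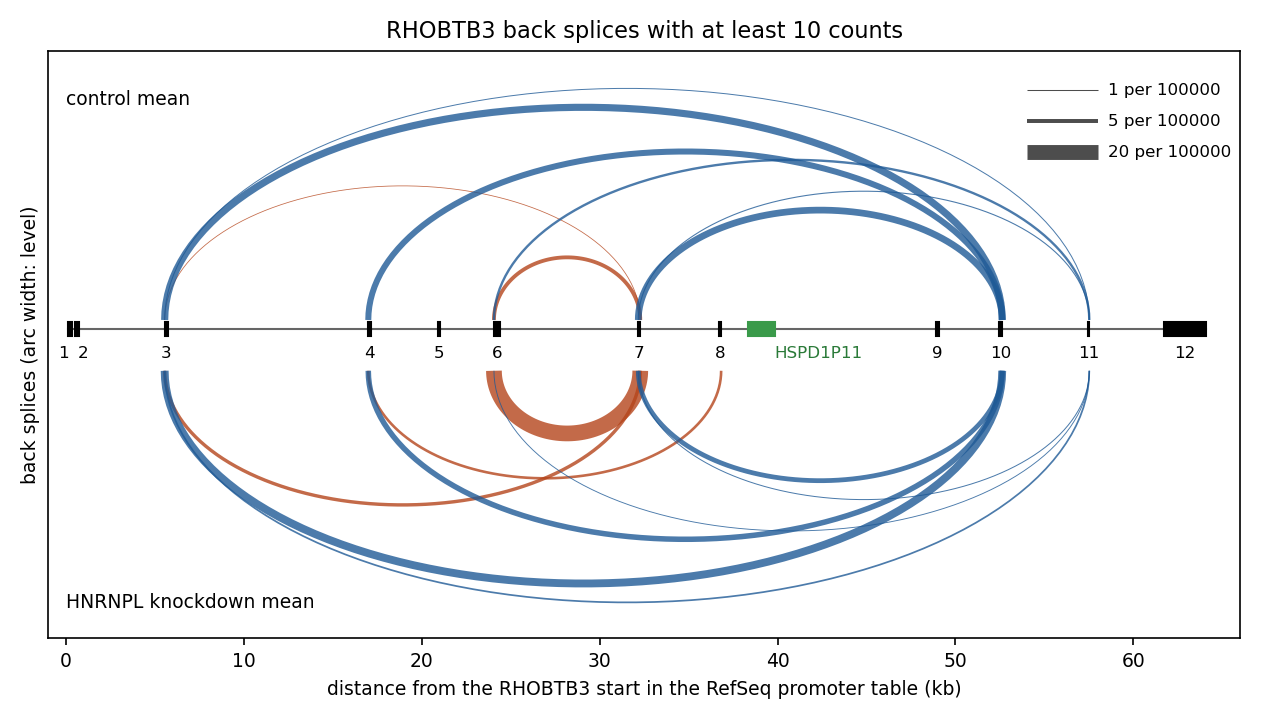
RHOBTB3 back splices with at least 10 counts, drawn as arcs from first to last block over the distance (kb) from the RHOBTB3 start in RefSeq's promoter table, which lies inside the longer gene span that RefSeq gives, with control means above and knockdown means below the gene. Arc width grows linearly with the group mean in counts per 100000 (n = 2), red arcs end in blocks 7 or 8 and blue arcs in blocks 10 or 11, and the red arc from block 6 to block 7 widens from a mean of 4.82 to 21.1 while the blue arcs into block 10 from blocks 3 and 4 keep similar widths and that from block 7 narrows from 8.78 to 6.10.

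Knockdown and control differed in how the RHOBTB3 counts were divided among its circles, and also in their sum. All rows together summed to 206 and 238 counts in controls, beside 158 and 263 in knockdowns. Per 100000 counts of a library this was 43.6 and 42.8 in controls and 55.9 and 67.3 in knockdowns. Both knockdowns lay above both controls, with means of 43.2 ± 0.596 and 61.6 ± 8.10 (SD, n = 2). The gene ranked 419 of 14794 by its counts in these libraries.

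Rows that named RHOBTB3 alone had 36 and 53 counts in controls against 79 and 145 in knockdowns. Their values were 7.62 and 9.52 per 100000 in controls and 27.9 and 37.1 in knockdowns, and the groups did not overlap. Of all 5911 host genes, 15.9% were higher with no overlap and 36.1% lower, shares from which nothing is read here because RHOBTB3 was chosen on this contrast. The ratio of the means was 3.80, and 3.42 without control replicate 1. Rows that named a further gene had 170 and 185 counts in controls against 79 and 118 in knockdowns. Here the values were 36.0 and 33.2 per 100000 in controls and 27.9 and 30.2 in knockdowns, a ratio of 0.840.

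On this scale both knockdowns lay below both controls for the rows with a further gene, but the sign of that small difference depends on how libraries are scaled. With TMM scaling, which centres libraries on the bulk of genes, the fitted log2 fold change of these rows was 0.06 ± 0.33 (SE, edgeR). With library-size scaling it was -0.30 ± 0.28. For the rows naming RHOBTB3 alone the corresponding values were 2.22 ± 0.40 and 1.85 ± 0.32. The median of all 5911 host genes moved from -0.27 to -0.67 between the same scalings.

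A share within a library does not depend on scaling between libraries. Rows with a further gene made up 82.5% and 77.7% of the RHOBTB3 counts in the controls (replicate 1, then 2), against 50.0% and 44.9% in the knockdowns. The 95% exact binomial intervals were 76.6% to 87.4%, 71.9% to 82.9%, 42.0% to 58% and 38.8% to 51.1% in that order. They treat each count as independent and leave out variation between replicates. Amplified copies carried no molecular identifiers, so these intervals may be too narrow. The mean share was 80.1% ± 3.39 in controls and 47.4% ± 3.63 in knockdowns (SD, n = 2), a difference of -32.7 percentage points, or -30.3 without control replicate 1.

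RHOBTB3 can be set beside other host genes that have both kinds of row. There were 469 of these with at least 40 counts in each kind, some of which share rows because a row with a further gene counts for each gene it names. The log2 fold change of the rows with a further gene minus that of the rows naming the gene alone was -2.17 for RHOBTB3. The median over the other genes was -0.06, with quartiles of -0.71 and 0.59. A larger difference in either direction was found in 27 genes (5.76%). RHOBTB3 was chosen for its change in 1 of the 2 quantities, so its place in this distribution is a description.

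**Figure D2:**
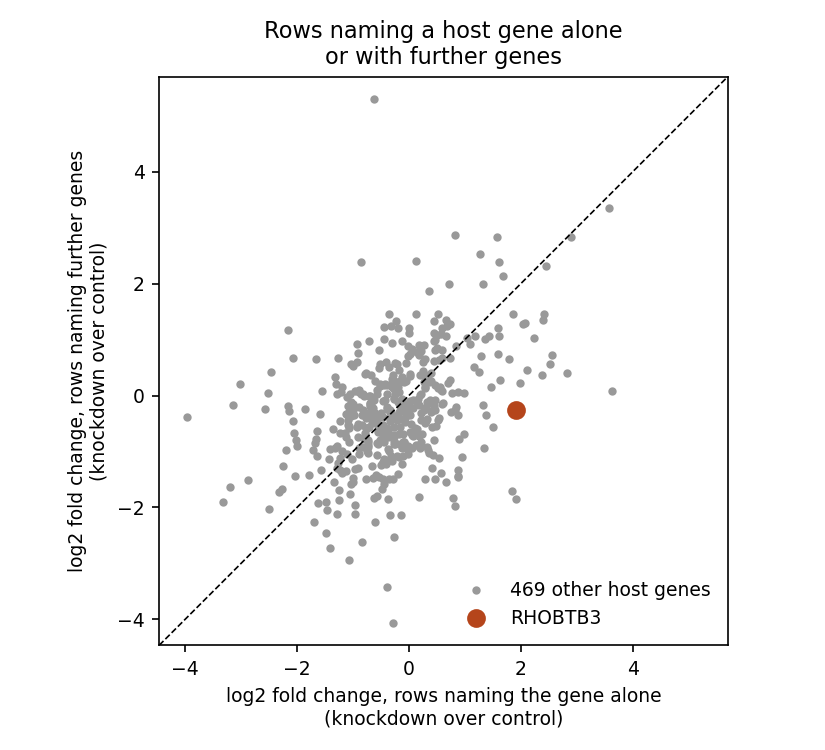
Log2 fold change (knockdown over control, library-size scaling) of the rows naming a host gene alone on the x axis and of its rows with further genes on the y axis, for 469 host genes (grey) and RHOBTB3 (red). RHOBTB3 lies at 1.92 and -0.25, below the dashed line of equal change, and 27 of the grey genes lie farther from that line.

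Among single circles the one of blocks 6 and 7 had the most counts. It lies at 95755396 to 95763620 on the plus strand of chromosome 5, is 479 nt long and joins blocks of 366 and 113 nt that are 7746 nt apart. It corresponds to the circle known as circRHOBTB3. It had 9 and 43 counts in controls against 52 and 93 in knockdowns, or 1.91 and 7.73 against 18.4 and 23.8 per 100000. The knockdowns lay above both controls. The controls differed widely from each other (4.82 ± 4.12, SD, n = 2), and the ratio of the means, 4.38, was 2.73 without control replicate 1.

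This circle held 4.37% and 18.1% of the RHOBTB3 counts in controls and 32.9% and 35.4% in knockdowns. It was the leading RHOBTB3 circle in both knockdown libraries. In control replicate 1 the circle of blocks 3 to 10 led with 25.2% of the counts, and in control replicate 2 that of blocks 4 to 10 with 22.3%. A different leading circle in the groups was found in 30.2% of 1258 host genes with at least 100 counts in each group, so the exchange is common in these libraries. Among the rows naming RHOBTB3 alone, the circle of blocks 6 and 7 held 25.0% and 81.1% of the counts in controls and 65.8% and 64.1% in knockdowns. The knockdown shares there lay between the control shares.

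The table lists 4 structures for the circle of blocks 6 and 7. The first is the 479 nt form, another retains the complete gap between the blocks and would be 8225 nt long, and the others carry longer versions of block 6, at 957 and 2223 nt. No counts per structure are given, so their shares are unknown.

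Further circles that ended before the pseudogene were also higher in the knockdown libraries. The circle of blocks 3 to 7 (933 nt) had 1 and 6 counts in controls against 8 and 22 in knockdowns, or 0.212 and 1.08 against 2.83 and 5.63 per 100000. That of blocks 4 to 8 (867 nt) had 0 counts in both controls and 10 and 11 in knockdowns. Against a floor of 3 counts in each control it was at least 5.41-fold higher. It reached 10 counts through the knockdown libraries alone, and could not have been among the 9 well-measured circles otherwise.

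Circles into block 10 made up most of the RHOBTB3 counts in controls. The circle of blocks 3 to 10 (1395 nt) had 52 and 43 counts in controls against 31 and 38 in knockdowns. At 11.01 and 7.73 per 100000 in controls against 10.96 and 9.73 in knockdowns, the groups overlapped. That of blocks 4 to 10 (1208 nt) overlapped too, with 6.14 and 9.52 per 100000 in controls and 4.24 and 9.99 in knockdowns. The circle of blocks 7 to 10 (575 nt) had 38 and 53 counts in controls and 20 in each knockdown, or 8.04 and 9.52 against 7.07 and 5.12 per 100000. Both knockdowns were lower than both controls, and the ratio of the means was 0.694. With TMM scaling its log2 fold change was -0.58 ± 0.40 (SE, edgeR), beside a median of -0.39 over all 21576 circles fitted.

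Circles into block 11 were rarer and did not move together. The circle of blocks 6 to 11 (1038 nt) had 15 and 14 counts in controls against 4 and 1 in knockdowns, and its groups did not overlap (3.18 and 2.52 against 1.41 and 0.256 per 100000). It shares its first block with the leading circle, which differed in the opposite direction. That of blocks 3 to 11 (1492 nt) was higher with no overlap per 100000 (0.423 and 1.44 against 2.12 and 1.79), on 2 and 8 counts against 6 and 7. That of blocks 7 to 11 (672 nt), with 5 and 6 counts against 1 and 6, overlapped.

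The other 11 block-to-block circles had fewer than 10 counts each. Of these, the circle of blocks 3 to 6 counted 1 and 0 in controls and 3 and 4 in knockdowns, that of blocks 4 to 7 counted 1 in each control and 3 in each knockdown, and that of blocks 3 to 8 counted 1 and 0 against 1 and 5. The circle of blocks 5 to 10, which crossed the pseudogene, counted 3 in each control, 0 in knockdown replicate 1 and 1 in knockdown replicate 2. The groups of these 4 circles did not overlap per 100000. Nor did those of blocks 4 to 11, with 2 and 0 counts in controls against 2 in each knockdown. That circle crossed the pseudogene and yet was higher in knockdowns. Blocks 6 to 8 was higher too, with 0 in each control against 1 and 2, and blocks 8 to 10 lower, with 2 and 1 against 0 in each knockdown. The share of all circles below 10 counts without overlap was not computed. Such counts are too few to rely on singly, and they enter the sums by last block.

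**Figure D3:**
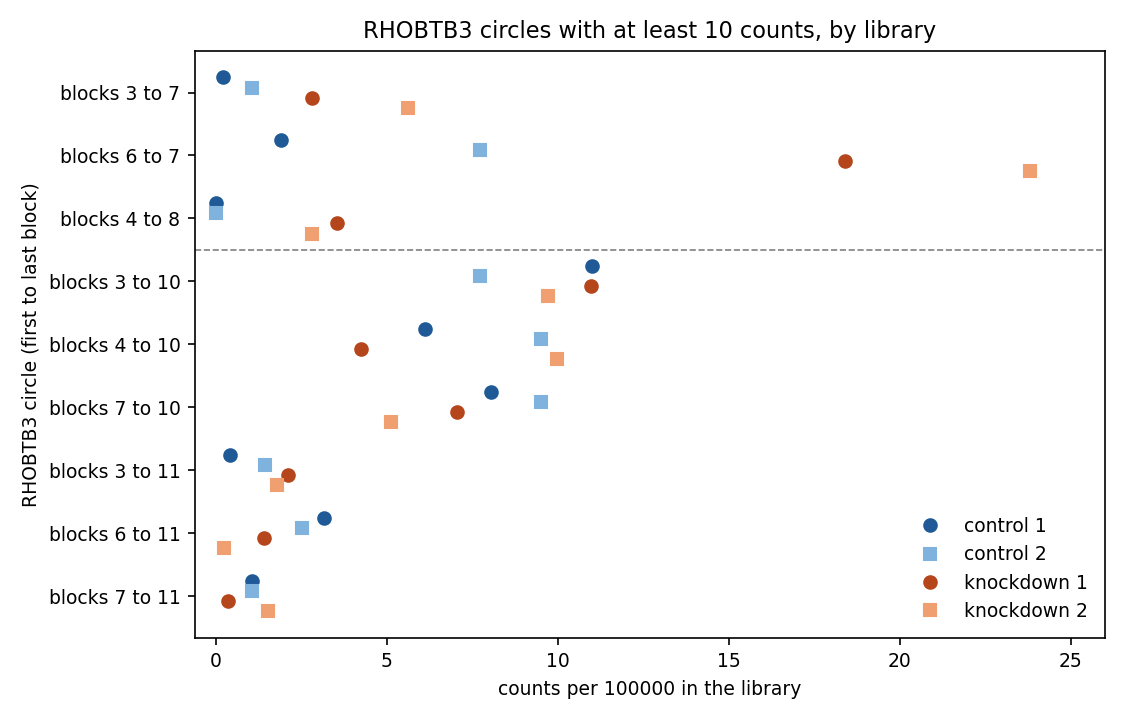
Counts per 100000 (x axis) of the 9 RHOBTB3 circles with at least 10 counts, 1 point per library, with circles that end before the pseudogene above the dashed line. The 3 circles above the line have both knockdown points (red) to the right of both control points (blue), led by blocks 6 to 7 at 18.4 and 23.8, while blocks 3 to 10 and 4 to 10 below it overlap.

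Of these 9 circles, 4 were higher in knockdowns with no overlap between groups, 2 were lower with no overlap and 3 overlapped. Each of the 3 circles that named RHOBTB3 alone was among the 4. Among all 21576 circles with at least 10 counts, 23.2% were higher with no overlap and 22.9% were lower with no overlap. RHOBTB3 had been chosen on this contrast, so nothing is read from its counts beside these shares. In edgeR's quasi-likelihood test 0 of the 21576 circles passed an adjusted p of 0.05. At an unadjusted p under 0.05 there were 2895 (13.4%), and DESeq2 called 1117 (5.18%) at its adjusted p. Without control replicate 1 or 2, edgeR called 4468 (28.1%) or 6392 (43.2%) of the circles it then tested. Over the host genes, edgeR called 1.47% higher and 0.0338% lower at an adjusted p of 0.05, and 15% in either direction at an unadjusted p under 0.05.

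Grouping the rows without an asterisk by their last block separated the groups, as shares of these counts, for blocks 6, 7, 8, 10 and 11. A rise in the share of some blocks lowers that of others. Block 6 rested on 9 counts, with shares of 0.602% and 0% in controls and 1.92% and 1.95% in knockdowns. Circles that ended in block 7 took 6.63% and 21.5% of these counts in controls and 40.4% and 45.9% in knockdowns. For block 8 the shares were 0.602% and 0% in controls and 7.69% and 7.0% in knockdowns. The 0 was 0 of 233 counts, for which the 95% exact binomial interval ends at 1.57%. Circles into block 10 took 74.7% and 66.52% in controls and 40.4% and 38.5% in knockdowns, and those into block 11 took 15.7% and 12% in controls and 9.62% and 6.23% in knockdowns. Counts into block 7 divided by counts into block 10 were 0.0887 and 0.323 in controls and 1.00 and 1.19 in knockdowns. The grouping was chosen after the values had been seen, and how often last blocks separate the groups in other host genes was not computed.

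In absolute terms most of this lay with the circles that ended in block 8 or before. These were 8 circles, each naming RHOBTB3 alone, and together had 2.75 and 8.98 per 100000 in controls and 27.6 and 36.1 in knockdowns. The ratio of the means was 5.43, and 3.54 without control replicate 1. The 12 circles that ended in block 9 or later had 31.96 and 32.9 per 100000 in controls and 27.6 and 29.7 in knockdowns. That is a ratio of 0.884, whose sign is within the shift between scalings given above.

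**Figure D4:**
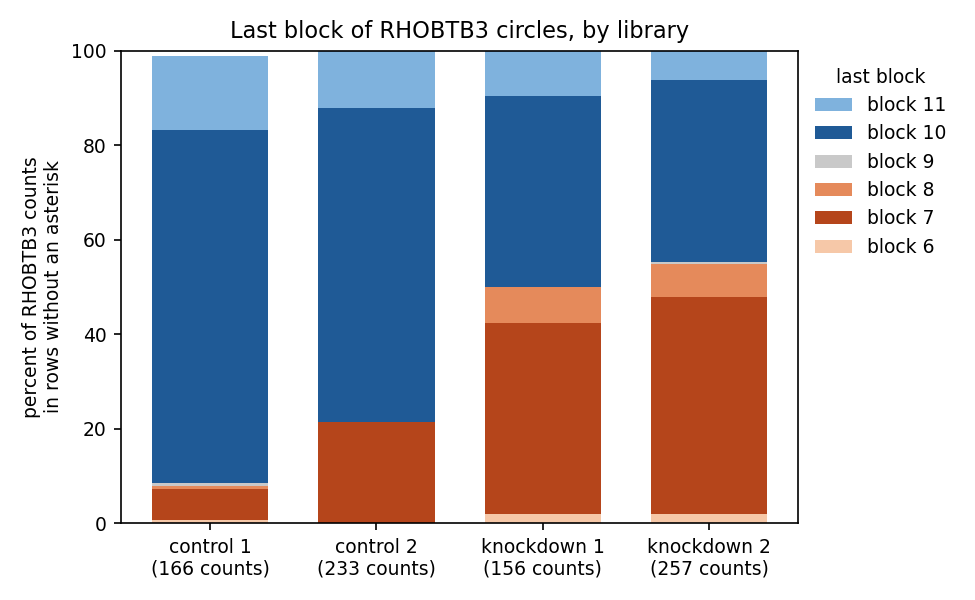
Percent of RHOBTB3 counts in rows without an asterisk, by the last block of the circle, in each library, with the number of counts under each bar. Block 7 (dark red) grows from 6.63% and 21.5% in controls to 40.4% and 45.9% in knockdowns, block 10 (dark blue) shrinks, and the bar of control replicate 1 stops short of 100% because of the row that is the gap between blocks 4 and 5.

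The first block showed less difference. Circles that began in block 3 took 34.9% and 24.5% of the counts without an asterisk in controls and 31.4% and 30.0% in knockdowns, and those that began in block 4 took 19.3% and 23.2% against 17.3% and 21.8%. In both cases the groups overlapped. Circles from block 6 took 14.5% and 25.3% in controls and 36.5% and 37.7% in knockdowns. Those from block 7 took 25.9% and 25.3% in controls and 13.5% and 10.1% in knockdowns. Block 7 thus had a smaller share as a first block and a larger share as a last block in the knockdown libraries. Per 100000 counts, circles from block 7 had 9.10 and 10.6 in controls and 7.43 and 6.66 in knockdowns. The ratio of the means was 0.715. This sum was not fitted with TMM scaling, so whether its drop depends on scaling was not tested. Of the 242 counts that ended in block 7, 197 belonged to the circle of blocks 6 and 7.

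The median length over RHOBTB3 counts was 1208 and 1038 nt in controls and 820 nt in each knockdown. The gaps beside the circle of blocks 6 and 7 measured 3045 nt before it and 4425 nt after it. Block 10, the most frequent last block over all libraries together, was followed by a gap of 4798 nt, and block 11 by one of 4200 nt. In knockdown replicate 1 blocks 7 and 10 tied as last block at 63 counts, and in knockdown replicate 2 block 7 led with 118 against 99. Block 8, a rarer last block, was followed by the longest gap, 12085 nt. Among first blocks, block 3 followed a gap of 4804 nt, block 4 one of 11257 nt and block 7 one of 7746 nt.

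The rows outside the 20 block-to-block circles were small. The 22 rows with an asterisk or without a motif held 53 counts, 40 of them in control replicate 1, and none exceeded 6 counts. A total of 14 RHOBTB3 rows, 8 naming it alone and 6 with a further gene, had counts in control replicate 1 and in no other library. Through such rows the controls looked closer to each other in the rows naming RHOBTB3 alone (36 and 53 counts) than in the circle of blocks 6 and 7 (9 and 43 counts). Among the rows naming RHOBTB3 alone, 58.3% of the counts of control replicate 1 carried an asterisk, beside 5.66%, 1.27% and 2.76% in control replicate 2 and knockdown replicates 1 and 2. Restricted to motifs without an asterisk in all genes, the log2 fold change of RHOBTB3 alone was 2.46 ± 0.40 (SE, edgeR), beside 2.22 with all rows.

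Host genes with the most similar profile over the 4 libraries were SETDB2, SRFBP1, DEK, SMCHD1 and AHI1. They had the smallest Euclidean distance, from 0.249 to 0.294, between centred log2 values of rows naming the gene alone, where the median over 3364 host genes was 2.37. SMCHD1, a chromatin protein of the inactive X chromosome, had 30.1 and 45.8 per 100000 in controls and 132 and 153 in knockdowns. With library-size scaling its rows with a further gene were at a log2 fold change of -0.27, beside 1.91 for those naming it alone. For AHI1 these values were 1.45 and 1.86. DEK, a chromatin-binding protein, had 11.2 and 17.6 against 41.7 and 60.9. SETDB2, a histone methyltransferase family member, had 3.60 and 3.77 against 13.8 and 15.4. The points are 4 libraries, so many genes can lie this close.

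The other genes tied to the RHOBTB3 protein were read from the fit over all host genes. Of a list of 42 genes of CUL3 ligases, RAB9 transport and HIF1A turnover, 22 could be tested. None passed an adjusted p of 0.05 in edgeR or in DESeq2, and 7 in edgeR and 5 in DESeq2 had an unadjusted p under 0.05, as did 15% and 7.95% of all 5911 host genes. DESeq2 called 2.47% of the host genes at its adjusted p. The summed level was 340 per 100000 in control replicate 1 and 148 to 169 in the other libraries. The median log2 fold change was -0.58, beside -0.27 over all host genes. The members with the most counts were HSP90AB1 and HSP90AA1, chaperones of HIF1A among other clients, with 615 and 131, and 495 and 106 counts in controls and 62 and 78, and 73 and 116 in knockdowns. Both have near-identical copies in the genome, so their counts are uncertain. Their log2 fold changes were -1.46 ± 0.61 and -0.73 ± 0.60 (SE), with adjusted p of 0.302 and 0.589 in edgeR. Without control replicate 1 the log2 fold changes were 0.03 and 0.76, and without control replicate 2 they were -2.04 and -1.30. HSP90AA1 was thus called higher by the former fit (adjusted p = 0.00583, edgeR) and lower by the latter (adjusted p = 4.14e-11, edgeR).

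Leaving out either control changed this list. Without control replicate 1, 7 of 16 tested members passed in edgeR, 5 higher and 2 lower, and without control replicate 2, 10 of 19, 5 in each direction. Over all host genes the same fits called 27% of 4665 and 38.5% of 5413. Such a fit assumes that the lone control varies like the knockdown pair. The members named next were picked, after their values had been seen, for passing in the same direction in both fits. These fits share the knockdown libraries, and the share of all host genes that did so was not computed. Nothing is therefore read from that agreement. CUL3, the ligase scaffold that binds RHOBTB3, had 14 and 19 counts in controls against 22 and 33 in knockdowns, in rows naming it alone. When edgeR fitted all libraries, the value for these CUL3 rows was 1.64 ± 0.48 on the log2 scale (SE, adjusted p = 0.154). With library-size scaling the CUL3 rows with a further gene went the other way, at -0.94 beside 1.34 for those naming it alone. HIF1A had 18 and 16 counts in controls against 17 and 40 in knockdowns. With library-size scaling its rows with a further gene were at 0.71, beside 1.29 for those naming it alone. CUL2, the scaffold of the ligase that carries VHL, and GCC2, a Golgi tether that binds RAB9, were the other 2 with values above 0, at log2 fold changes of 1.06 and 1.00. KLHL9, a CUL3 adaptor, had 10 and 12 counts in controls and 0 in both knockdowns. EPAS1, a further member, was not tested without control replicate 1. It had 22 and 8 counts in controls and 0 in both knockdowns. With all libraries, 7 of the 22 tested members had a log2 fold change above 0 and 15 below, so the members named above do not represent the list.

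Neighbours of RHOBTB3 on chromosome 5 had a median near that of all host genes, but differed widely among themselves. Of 17 listed genes 9 could be tested, with a median log2 fold change of -0.28. Single values ran from -5.34 ± 2.71 (SE) for RIOK2, with 8 and 5 counts in controls and 0 in knockdowns, to 0.82 ± 0.72 for ERAP1. GLRX, the neighbour downstream, was at -2.29 ± 1.33 (SE), with 11 and 9 counts in controls and 1 in each knockdown. None passed an adjusted p of 0.05 in edgeR or DESeq2, and 0 had an unadjusted p under 0.05 in either. LNPEP, an aminopeptidase, had 101 and 116 counts in controls against 55 and 81 in knockdowns, a log2 fold change of 0.24 ± 0.35 (SE). ELL2, a transcription elongation factor, had 102 and 52 counts in controls against 25 and 42 in knockdowns, a log2 fold change of -0.28 ± 0.42 (SE). Without control replicate 1 the list had 1 call, CAST at 1.60, and without control replicate 2 it had 2, CAST at -0.95 and ARSK at -2.43, of 7 and 8 members tested. The shares over all host genes in those fits were the 27% and 38.5% given above.

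The cell line was checked on circular RNA only, where many markers give no circle. Of 7 genes listed for this epithelial line, 5 had counts, led by MET with 1082 and EGFR with 200. The others were low, with EPCAM at 40, CDH1 at 25, KRT5 at 2 and both KRT18 and KRT19 at 0. EGFR, the receptor this line overexpresses, had 24.3 and 9.34 per 100000 in controls against 4.24 and 5.38 in knockdowns (adjusted p = 0.211, edgeR). Mesenchymal markers summed to at most 1.06 per 100000 in a library, and 3 immune markers had 0 counts.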

How the data were processed

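Circular RNA was copied from total RNA with the Induro reverse transcriptase, amplified with phi29 polymerase and sequenced on nanopores, per the labels' protocols. The authors deposited raw counts per back splice, which are whole numbers and not normalized, called with CIRI-long per the file headers and columns. The submitters' processing notes name GRCh38.p14 and DESeq2; aligner, base caller and filters are not given in the sources used here. A deposited table of scaled values was not used.

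Groups came from the sample titles. Values per 100000 are counts divided by the library total. RHOBTB3 rows were split by whether the gene field holds another gene. Host genes (rows with 1 gene, not antisense) and circles with at least 10 counts were fitted with edgeR's quasi-likelihood test (edgeR 4.0.16, R 4.3.3; TMM, Benjamini-Hochberg adjustment, threshold 0.05), with DESeq2 1.42.0 as an alternative. Standard errors are the log2 fold change over the root of edgeR's F. The fits were tested on simulated data. Circles with at least 10 RHOBTB3 counts were named, as were the 2 most counted members of each list, members that passed, and the 5 closest profiles (pseudocount 0.5, at least 40 counts). The members and lists were chosen with earlier results of these data known. RefSeq tables gave gene spans. Circle sequences were not analysed here. One further gene list and some marker genes are not reported here.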

Additional observations from a re-analysis of the deposited data

How the results depend on the processing

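The log2 fold change of the rows naming RHOBTB3 alone ran from 1.85, with library-size scaling, to 2.71. The gene was chosen because these rows were higher in these libraries, so nothing is read from the constant sign. Values were lower in settings that add rows with a further gene. These were 0.84 when a row was given to its first gene and 0.82 with all rows that name RHOBTB3. Leaving out 1 library gave 1.99 to 2.71, and leaving out the circle of blocks 6 and 7 gave 1.99. For the rows with a further gene it was 0.06, with -0.30 under library-size scaling, 0.14 with DESeq2 size factors in edgeR and with DESeq2, and -0.0077 to 0.26 without 1 library. The share of these rows differed by -32.7 percentage points between groups, by -36.7 for circles with at least 10 counts and by -37.2 for motifs without an asterisk, a setting chosen after seeing the data, and by -30.1 to -35.3 without 1 library. The share of the circle of blocks 6 and 7 differed by 22.9 points, by 16.1 to 29.8 without 1 library and by 11.9 within the rows naming RHOBTB3 alone, where it was -16.2 without control replicate 1. Host genes past the threshold numbered 89, and 50 with DESeq2 size factors in edgeR, 146 with DESeq2, 326 with no filter, 0 under edgeR's newer dispersion method (934 with unadjusted p under 0.05) and 24 to 2082 without 1 library. Circles past it numbered 0, and 471 with no filter, 617 when 40 counts were required, 1117 with DESeq2 and 0 to 6392 without 1 library. The CUL3, RAB9 and HIF1A list had 0 calls, 2 with no filter and 0 to 10 without 1 library; the neighbours had 0 to 2 without 1 library. Fewer features or samples enter some of these fits; otherwise the cause was not tested. Replicate numbers are shared by both groups, but deviations of same-numbered libraries correlated at only 0.0706 over 4944 circles, and they are taken as mere names. Under a replicate block the RHOBTB3 log2 fold changes were 2.23 and 0.06, and 314 host genes and 1653 circles passed. Within same-numbered libraries the share of rows with a further gene differed by -32.5 and -32.9 points, and that of the circle of blocks 6 and 7 by 28.5 and 17.3. RHOBTB3 had 158 to 263 counts in a library, so the order of the groups in circles below 10 counts rests on few counts.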

Other observations

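A row of the antisense type, at 95749510 to 95750376 on the minus strand of chromosome 5, also named RHOBTB3. It had 4 counts in control replicate 2 and none in the other libraries. The row that also named GLRX had no strand and no splice motif, lay between RHOBTB3 and GLRX as RefSeq places them, and had 4 counts in control replicate 1 alone.

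Intron circles were a small part of RHOBTB3. They took 5.34% and 1.68% of its counts in controls and 0.633% and 0.380% in knockdowns, where all host genes together had 21.7% and 11.1% in controls and 10.4% and 10.5% in knockdowns.

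Counts were spread over several RHOBTB3 circles in every library. The inverse Simpson index, the number of equally used circles that would give the same spread, was 7.71 and 5.86 in controls and 5.60 and 5.41 in knockdowns. Over the 4 libraries the leading circle held 22.8% of the counts, below the median of 27.4% over 1258 host genes with at least 100 counts in each group.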
